A study of Mus musculus with 20 samples.

Results

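The promoters of Sox, Fox, Pax, Lhx, Six-family, Tbx and Gata genes were examined in sperm DNA of F1 male mice. Members were all promoters whose gene symbol was Sox, Pax, Lhx, Tbx or Gata followed by a number, a Six-family name of the same form, or Fox followed by 1 letter and a number, on chromosomes 1 to 19. This gave 85 of the 22480 promoters in the table, of which 38 were Fox, 15 Sox, 8 Pax, 8 Tbx, 7 Lhx, 5 Six-family and 4 Gata. Sperm was taken at 8 weeks from 20 males in 4 groups of 5, which were control and DEHP males of the inbred strain C57BL/6J and of the inbred strain FVB/N. DEHP is di(2-ethylhexyl) phthalate, a plasticizer, and pregnant mothers of the DEHP groups were given 300 mg/kg/day orally in corn oil from gestation day 9 to 19. Mothers of the controls received corn oil alone.

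The families encode transcription factors that set cell identity in the embryo. Sox factors bind DNA through an HMG box, Fox factors through a forkhead domain, Pax factors through a paired domain, Lhx and Six-family factors through homeodomains, Tbx factors through a T-box and Gata factors through zinc fingers. Their promoters are typically CpG islands, stretches rich in CG sites that stay unmethylated in most cells, and in sperm many of them are known to be free of DNA methylation and to keep histones.

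Methylation was measured by MBD-sequencing, in which fragments that carry methylated CpG are captured with a methyl binding domain and sequenced. Each value is the mean or SD, over the libraries of a group, of normalized read-pairs overlapping a promoter probe. A probe runs from 2000 bases before to 200 bases after the gene start and is 2200 bases long (mm10). Values of single libraries were not analysed here, so the depth of each library is unknown and each value below is a group mean ± SD (n = 5). More reads mean more captured methylated DNA, but the number also grows with the number of methylated CG sites in the probe, so it is not a percentage of methylation. The 10 DEHP and the 10 control samples were submitted to sequencing separately, with both strains in each submission, and an effect of DEHP cannot be told apart from one of the submission. A comparison between the strains stays within a submission.

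The deposited means differed between the groups in scale and in their spread over promoters. Their sums over all promoters were 226268 in C57BL/6J control and 153283 in C57BL/6J DEHP, against 141092 in FVB/N control and 150346 in FVB/N DEHP. The median log2 ratio of all promoters, DEHP over control, was -0.10 for C57BL/6J and 0.35 for FVB/N. The same median for C57BL/6J over FVB/N was 0.54 in controls and 0.04 in DEHP. Changes are therefore read against these shifts, and each call below is also given with the group means scaled to equal sums or equal medians. These scalings use 1 factor per group and do not equalize the spread over promoters. The 25th and 90th percentiles were 2.1 and 25.2 reads in C57BL/6J control and 2.7 and 14.6 in C57BL/6J DEHP. For FVB/N they were 1.4 and 15.2 in control and 2.4 and 14.8 in DEHP. As a check of the sperm label, the promoters at imprints methylated on the paternal allele held 17.5 to 25.3 reads (H19), 5.2 to 25.8 (Meg3) and 2.4 to 3.7 (Rasgrf1) over the 4 groups. The 14 promoters at imprints methylated on the maternal allele ranged from 0.5 to 26.5 reads, with the highest value at Nnat, and 13 germline genes that somatic cells methylate ranged from 1.5 to 16.9. These ranges overlap, so promoter probes of this kind neither supported nor contradicted the label clearly.

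The sequences that carry the CG sites differ greatly between members. Below are windows of 150 bases for the 5 members on which the results turn, with Foxo3, the forkhead gene with the most CG sites, for contrast. Each is the window with the most CG sites upstream of the start that touches no annotated exon, read 5′ to 3′ on the strand of the gene from GRCm38.p6, with each CG in capitals. All 6 genes lie on the minus strand.
Sox10: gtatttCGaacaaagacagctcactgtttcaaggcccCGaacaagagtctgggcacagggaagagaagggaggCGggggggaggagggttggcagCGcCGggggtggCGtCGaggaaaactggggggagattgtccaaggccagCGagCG
Sox4: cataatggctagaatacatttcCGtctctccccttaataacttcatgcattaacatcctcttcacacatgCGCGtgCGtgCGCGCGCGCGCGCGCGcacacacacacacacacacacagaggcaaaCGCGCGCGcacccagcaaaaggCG
Tbx19: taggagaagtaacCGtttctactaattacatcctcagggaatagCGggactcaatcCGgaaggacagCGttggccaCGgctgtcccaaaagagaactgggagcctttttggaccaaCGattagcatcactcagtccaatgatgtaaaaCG
Lhx1: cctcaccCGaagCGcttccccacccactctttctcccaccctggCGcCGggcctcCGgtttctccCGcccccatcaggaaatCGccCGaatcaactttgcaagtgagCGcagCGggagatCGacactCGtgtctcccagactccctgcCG
Pax4: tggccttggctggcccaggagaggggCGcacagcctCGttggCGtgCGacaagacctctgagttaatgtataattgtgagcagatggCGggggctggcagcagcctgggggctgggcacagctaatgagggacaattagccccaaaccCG
Foxo3: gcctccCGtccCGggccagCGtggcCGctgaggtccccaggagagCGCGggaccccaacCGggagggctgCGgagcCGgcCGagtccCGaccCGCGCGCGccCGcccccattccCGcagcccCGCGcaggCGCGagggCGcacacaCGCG

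The Sox10 window is chr15:79165825-79165974, between 1468 and 1319 bases before the start, and holds 9 CG sites. The Sox4 window is chr13:28953942-28954091 with 17 CG sites, many of them in a run of alternating CG that passes into a run of CA. The Tbx19 window, chr1:165161533-165161682, holds 7 CG sites and the Pax4 window, chr6:28451179-28451328, holds 6. The Lhx1 window is chr11:84526088-84526237 with 13 CG sites, and the Foxo3 window is chr10:42276834-42276983 with 24. Foxo3, a forkhead factor that keeps primordial follicles and stem cells quiescent, thus had the densest window of the 6, and it was among the members with the fewest captured reads.

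Most members held few captured reads and many CG sites. Not every gene of these families had a probe, as 6 of 12 listed heart genes did. The authors kept only probes above a minimum of read-pairs, so family promoters with the fewest reads may be missing here. The median number of CG sites per probe was 81 in the members, from 19 to 203, and 45 in all promoters. The median of the members' means was 3.6 normalized reads in control and 2.7 in DEHP for C57BL/6J, then 2.3 in control and 2.9 in DEHP for FVB/N. All promoters had medians of 5.0, 5.3, 3.0 and 4.9 reads in the same order. Fewer than 1 read was found for 8, 13, 10 and 19 members, which is 9.41%, 15.3%, 11.8% and 22.4% of the 85, beside 8.80%, 4.66%, 14.8% and 8.04% of all promoters. The members' share was above that of all promoters by the most in both DEHP groups, and in FVB/N control it was below. Spread between libraries was large at these levels: the median coefficient of variation of members with a mean of at least 3 reads was 0.40, 0.42, 0.68 and 0.39, and the FVB/N controls were the most variable.

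The lowest means over the 4 groups belonged to Foxb2, Foxp1 and Foxf2, at 0.55, 0.625 and 0.65 reads. Foxp1, which acts in lung, heart and B cell development, had 0.7 ± 1.6, 0.9 ± 0.9, 0.7 ± 0.6 and 0.2 ± 0.4 reads in the same order of groups, with 195 CG sites. Foxo3, with 203 CG sites, had 1.2 ± 0.9, 0.5 ± 0.8, 2.0 ± 1.5 and 0.6 ± 0.8. Foxe1, a thyroid and palate factor with 157 CG sites, had 1.6 ± 1.9, 0.7 ± 0.7, 2.4 ± 1.0 and 1.0 ± 1.2. The 3 members with the most CG sites therefore held at most 2.4 reads in any group. Among the families, the median in C57BL/6J control went from 1.6 reads for the 5 Six-family promoters to 7.6 for the 4 Gata promoters, and with 4 to 38 promoters a family these medians are a description.

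A small set of members stood out from this. A promoter was called signal-rich when its mean lay above the 75th percentile of all promoters in both control groups, which was 12.7 reads in C57BL/6J and 7.3 in FVB/N. This held for 8 of 85 members (9.41%) and for 4842 of 22480 promoters (21.5%). The 8 were Foxj1, Sox10, Foxn1, Tbx19, Tbx10, Foxi1, Gata4 and Sox4, and 0 were Pax, Lhx or Six-family promoters. Just inside the limit were Foxi1 in FVB/N, at 8.3 reads, and Sox4 in C57BL/6J, at 18.2. Just outside were Lhx6, Gata2 and Sox8, whose FVB/N control means of 8.4, 9.1 and 8.8 passed while their C57BL/6J means of 11, 11.4 and 11.2 did not, and Sox15, with 14.3 and 6.7.

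**Figure D1:**
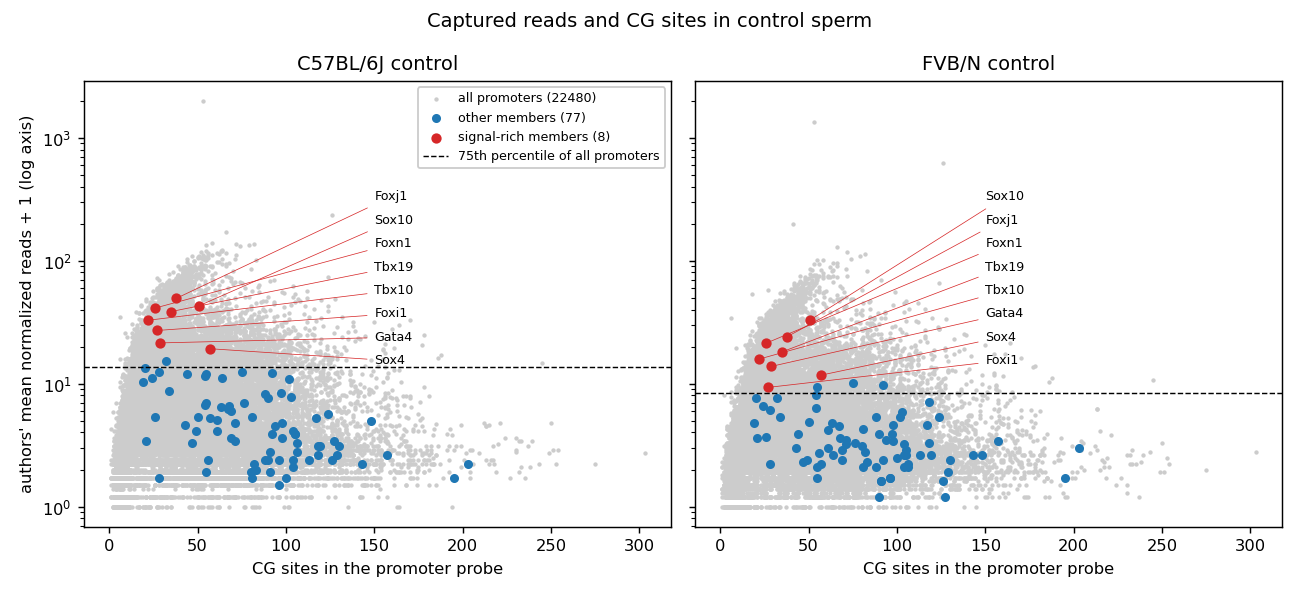
Authors' mean normalized reads plus 1 (log axis) against the number of CG sites in the promoter probe, for C57BL/6J control (left) and FVB/N control (right). Grey points are all 22480 promoters, blue points 77 members and red points the 8 signal-rich members, which lie above the 75th percentile (dashed line) and have 57 CG sites or fewer, while no member with over 80 CG sites lies above the line in both panels.

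Foxj1, the master regulator of motile cilia, had the highest mean in C57BL/6J control, with 48.3 ± 17.1 reads, and 23.1 ± 12.8 in FVB/N control. Its probe (chr11:116336191-116338390, minus strand, 38 CG sites) overlapped exons of the neighbouring gene Rnf157 and no exon of Foxj1, and its start lay 991 bases from the nearest annotated Foxj1 start. Sox10, a neural crest factor that is needed for pigment cells and peripheral glia, had 42.0 ± 17.2 reads in C57BL/6J control and 31.9 ± 7.3 in FVB/N control (chr15:79164307-79166506, minus strand, 51 CG sites, with exons of Sox10 and Gm10863). Foxn1, the factor of thymic epithelium and hair that is lost in nude mice, had 40.1 ± 10.2 and 20.3 ± 10 (chr11:78386409-78388608, minus strand, 26 CG sites). These 3 had the highest control means of all members in both strains, although the wide SDs do not fix an order among them.

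Tbx19, which specifies the ACTH-producing cells of the pituitary, had 37.5 ± 7.0 reads in C57BL/6J control and 17.1 ± 4.9 in FVB/N control (chr1:165160574-165162773, minus strand, 35 CG sites). Tbx10, another T-box gene, had 31.7 ± 16.2 and 14.8 ± 14.8 (chr19:3990752-3992951, plus strand, 22 CG sites), so its FVB/N SD was as large as the mean. Foxi1, needed for the inner ear and for acid-secreting cells of the kidney, had 26.0 ± 11 and 8.3 ± 9.6 (chr11:34207890-34210089, minus strand, 27 CG sites). Gata4, a factor of heart, gut and gonad, had 20.4 ± 5.0 and 12.8 ± 5.3 (chr14:63271493-63273692, minus strand, 29 CG sites). Sox4, which acts in lymphocyte, heart and gonad development, had 18.2 ± 4.4 and 10.7 ± 4.4 (chr13:28953483-28955682, minus strand, 57 CG sites). The annotation places an exon of the gene itself in the probes of these 5, as in those of Sox10 and Foxn1.

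The signal-rich members were mostly the ones with few CG sites. Among members with at most 40 CG sites, 6 of 15 (40%) were signal-rich, beside 29.3% of the 10217 promoters of that class. Of members with 41 to 80 CG sites, 2 of 27 (7.41%) were, beside 17.4% of 8365 promoters. Above 80 CG sites 0 of 43 were, beside 10.2% of 3898 promoters. The median of members with at most 40 CG sites was 12.3 reads in C57BL/6J control and 6.6 in FVB/N control, against 6.7 and 3.8 for all promoters of that class, and with over 80 it was 2.1 and 1.6, against 3.0 and 2.1. Within the 85 members Spearman's rho between CG sites and level was -0.56 in control and -0.59 in DEHP for C57BL/6J, and -0.46 and -0.58 for FVB/N. Over all promoters it was -0.071, -0.24, -0.045 and -0.21. These correlations are across promoters that share libraries, and are given as a description.

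The position of the CG sites gave the same picture in the reference sequence. The number of CG sites counted in GRCm38.p6 was the authors' number in 77 of 85 members and in 93.2% of all promoters. A base was called island-like when it lay in a 200-base window with over 50% G and C and a ratio of observed to expected CG above 0.6. The median island-like share of the probe was 4.85% in the 8 signal-rich members and 40.3% in the other 77. In the 400 bases around the start, 6 of the 8 had no island-like base, against 11 of the other 77, and 62 of those 77 were island-like over more than 50% of these bases. Gata4 and Sox4 were the 2 signal-rich members with an island-like start, at 53.5% and 77.5% of these 400 bases. Median G and C content was similar, at 52.0% and 53.0%, while the median ratio of observed to expected CG was 0.235 in the signal-rich members and 0.54 in the others.

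**Figure D2:**
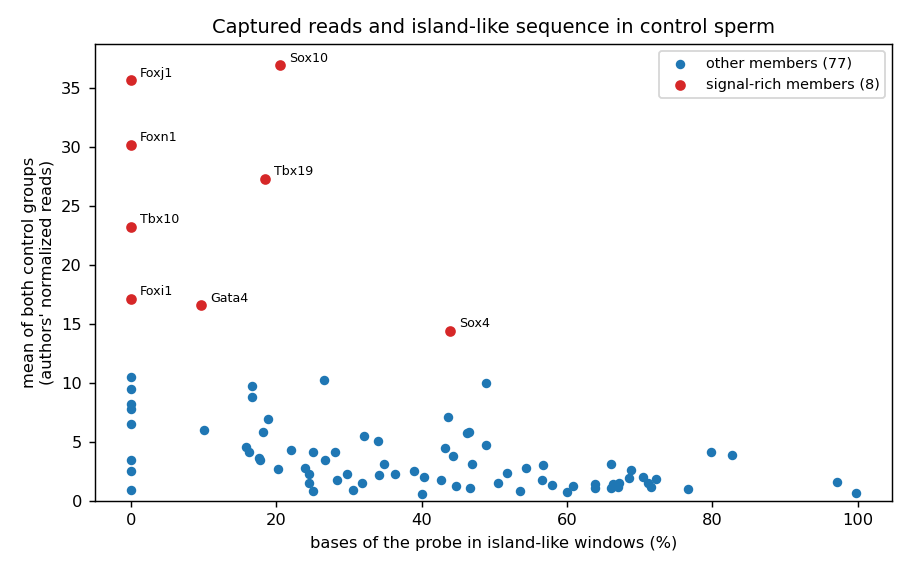
Mean of the 2 control group means (authors' normalized reads) against the share of probe bases in island-like windows (%), 1 point per member. The signal-rich members (red, 8) lie at or below 43.9% island-like bases, and 4 of them have 0%, while members (blue, 77) with mostly island-like probes stay under 5 reads.

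Expression values that the authors joined from an independent study of testicular cells existed for 79 members, on a scale that is not stated. The members' medians went from 4.70 in spermatogonia to 5.13 in whole testis, below those of all genes, which were 5.67 to 5.82 over the 6 fractions. Only 6 of 79 were above the upper quartile of all genes in spermatids. Foxj1 was the highest of these at 10.91, followed by Gata2, a blood stem cell factor, at 8.58. Sox30, a testis-specific Sox gene needed for spermiogenesis, reached 8.55 in spermatocytes and had 1.2 to 2.3 captured reads in the 4 groups. Gata4 reached 9.47 in Sertoli cells, the somatic cells of the tubule, while its sperm DNA held 12.8 to 20.4 reads. Across the 79 members, Spearman's rho between spermatid expression and level was 0.091 to 0.17 in the 4 groups, which is a weak relation and no finding.

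The next question was whether prenatal DEHP changed these promoters in C57BL/6J. Members were called by limma's moderated test on the group means and SDs, at a Benjamini-Hochberg adjusted p under 0.05 over all 22480 promoters. The p-values and SEs of this comparison rest nearly all on the spread of promoters of like level. Its degrees of freedom were 455, against 9.85 when the spread was not tied to the level. In that strain, 7 members fell in DEHP (Sox10, Sox4, Tbx19, Foxn1, Foxj1, Foxn4 and Tbx10) and 1 rose (Pax4). These 8 of 85 (9.41%) compare with 16.3% of all promoters called, 13.3% lower and 2.93% higher. The members' share lay below this background and was not tested against it. The median log2 ratio of the 85 was -0.38, beside -0.10 for all promoters, with 26 members above and 57 below 0. With equal sums the members' median was 0.06.

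Sox10 fell the most on the log2 scale. It had 42.0 ± 17.2 reads in C57BL/6J control and 13.0 ± 3.7 in C57BL/6J DEHP, and the range that each SD allows leaves room for the groups to overlap. The difference was -29.0 reads (SE 6.20, adjusted p = 0.000348, log2 ratio -1.62). Sox10 was also called with equal sums (adjusted p = 0.0147) and with equal medians (adjusted p = 0.000233). When the spread was not tied to the level, the limma adjusted p was higher, at 0.0335.

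Sox4 had 18.2 ± 4.4 reads in control and 5.6 ± 1.2 in DEHP. With 5 libraries, no library can lie more than 1.79 SD from its mean. On the deposited scale, every control library therefore held at least 10.2 reads and every DEHP library at most 7.89, so the groups cannot overlap. Separated promoters were counted on the deposited scale only, here and below. Equal sums multiplies C57BL/6J control values by 0.741 and C57BL/6J DEHP values by 1.09, and the Sox4 bounds then cross. With equal medians they stay apart. The difference was -12.6 reads (SE 2.82, adjusted p = 0.000586, log2 ratio -1.54), and the call was kept with equal sums (adjusted p = 0.0235) and equal medians (adjusted p = 0.000332).

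Tbx19 had 37.5 ± 7.0 reads in control and 14.7 ± 4.7 in DEHP, and every control library (at least 24.8 reads) lay above every DEHP library (at most 23.2). The difference was -22.8 reads (SE 5.81, adjusted p = 0.00251, log2 ratio -1.29). Only Sox4 and Tbx19 among the members were separated in this way (2.35%), as were 1.67% of all promoters, 1.42% with DEHP lower. Tbx19 was not called with equal sums (adjusted p = 0.0799), and its bounds cross on that scale.

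Foxn1 had 40.1 ± 10.2 reads in control and 15.9 ± 7.8 in DEHP, a difference of -24.2 (SE 6.27, adjusted p = 0.00305). Foxj1 had 48.3 ± 17.1 and 20 ± 5.8, a difference of -28.3 (SE 7.79, adjusted p = 0.00539). Tbx10 had 31.7 ± 16.2 and 16.3 ± 3.9, a difference of -15.4 (SE 5.40, adjusted p = 0.0336). In all 3 the DEHP mean was lower and the possible ranges of single libraries overlapped. Their rank among all promoters moved little, from percentile 97.7 in control to 96.7 in DEHP for Foxj1, 93.6 to 93 for Tbx10 and 96.3 to 92.3 for Foxn1. Sox10 went from 96.7 to 86.8 and Sox4 from 83.6 to 53.3. Foxn4, a factor of retinal and spinal interneurons with a CpG-rich probe (chr5:114273562-114275761, minus strand, 102 CG sites), had 9.9 ± 1.3 reads in control and 4.1 ± 1.9 in DEHP, a difference of -5.8 (SE 1.92, adjusted p = 0.0234). Of the 7 members that fell, Foxn4 alone was not signal-rich. With equal sums none of these 4 was called, with adjusted p from 0.0871 for Foxn1 to 0.398 for Tbx10. Tbx10 was also not called when the spread was not tied to the level (adjusted p = 0.174), a setting that called 6 members. Beside Sox10, these had adjusted p of 0.00887 (Tbx19), 0.00902 (Sox4), 0.0154 (Foxn4), 0.023 (Foxn1) and 0.0391 (Foxj1).

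Pax4, which directs pancreatic beta cell fate, was the member that rose. It had 0.7 ± 0.6 reads in control and 3.4 ± 1.5 in DEHP, a difference of 2.7 (SE 0.937, adjusted p = 0.0312, log2 ratio 1.37). Both means were low, and the possible ranges of single libraries overlapped. The call was kept with equal sums (adjusted p = 0.0109) and equal medians (adjusted p = 0.0355), and was missed when the spread was not tied to the level (adjusted p = 0.0719). The Pax4 probe (chr6:28449141-28451340, minus strand, 28 CG sites) held no island-like base.

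The other signal-rich members were Foxi1, with 26.0 ± 11 reads in control and 15.7 ± 8.4 in DEHP (adjusted p = 0.116), and Gata4, with 20.4 ± 5.0 and 15.7 ± 3.4 (adjusted p = 0.455). Neither passed the test. So 6 of 8 signal-rich members fell, and among all 4842 signal-rich promoters 51.3% did. Among the promoters that were not signal-rich 2.92% fell, with 1 of 77 members. Since this subset was chosen on control means, which enter the comparison, its count is a description. With equal sums, 2 of the 8 and 12.9% of all signal-rich promoters were called lower.

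The direction of calls over the whole table depended on the scale. As deposited, 659 promoters were higher and 2997 lower in DEHP, and with equal sums 2608 were higher and 693 lower. With equal sums 3 of 85 members were called, 1 higher and 2 lower, beside 14.7% of all promoters (11.6% higher, 3.08% lower). With equal medians 11 were called, 1 higher and 10 lower, beside 18.2% (2.45% higher, 15.8% lower). Pax4, Sox10 and Sox4 were the members called on all 3 scales.

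**Figure D3:**
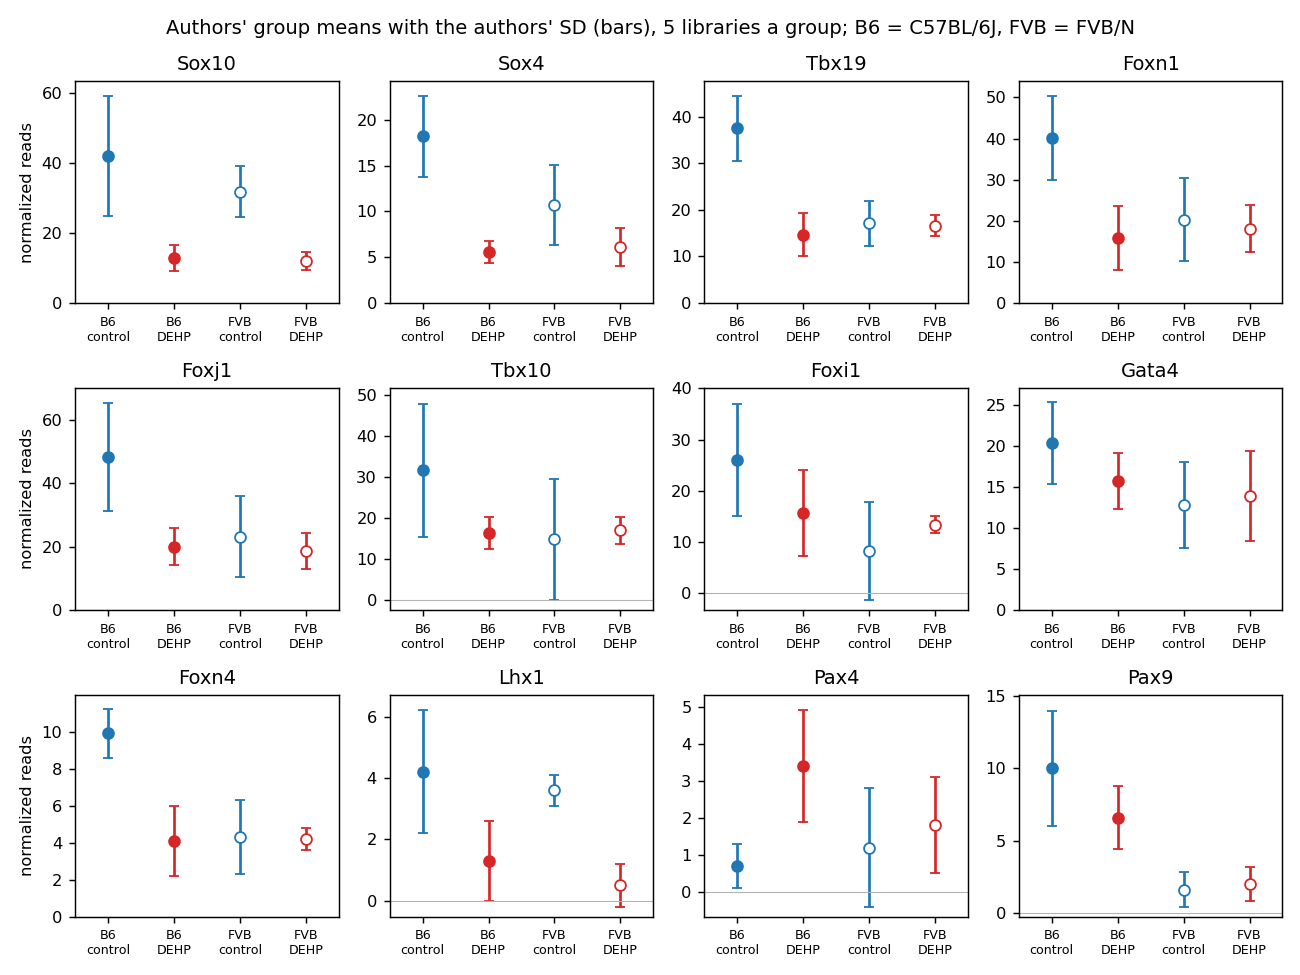
Authors' mean normalized reads with the authors' SD as bars (5 libraries a group) for 12 members, with controls in blue, DEHP in red, C57BL/6J as filled and FVB/N as open points. Sox10 is lower in DEHP in both strains, Tbx19, Foxn1 and Foxn4 have their highest mean in C57BL/6J control, Lhx1 is lowest in FVB/N DEHP, and Pax9 is higher in C57BL/6J with either treatment.

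In FVB/N the same test called 2 members, Sox10 and Lhx1, and both fell. They were 2 of 85 (2.35%), beside 2.78% of all promoters, of which 1.35% were lower and 1.44% higher. Over all 22480, 323 promoters were higher and 303 lower, which became 201 and 344 with equal sums and 57 and 1230 with equal medians. The median log2 ratio of the 85 was 0.05, below the 0.35 of all promoters, and 43 members lay above and 38 below 0. With equal medians the members' median was -0.48.

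Sox10 had 31.9 ± 7.3 reads in FVB/N control and 12 ± 2.6 in FVB/N DEHP. Every control library held at least 18.7 reads and every DEHP library at most 16.8, so the groups cannot overlap on the deposited scale. The difference was -19.9 reads (SE 4.15, adjusted p = 0.0201, log2 ratio -1.34). Sox10 was the only member called for DEHP in both strains. Each strain has its own control libraries, but both contrasts run between the same 2 submissions.

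Lhx1, a LIM homeodomain factor of the head organizer, kidney and genital ducts that is also known from spermatogonial stem cells, had 3.6 ± 0.5 reads in FVB/N control and 0.5 ± 0.7 in FVB/N DEHP. Every control library held at least 2.57 reads and every DEHP library at most 1.89. The difference was -3.1 reads (SE 0.784, adjusted p = 0.0413, log2 ratio -1.62). Its probe (chr11:84525335-84527534, minus strand) held 117 CG sites, was island-like over 82.7% of its bases, and overlapped exons of Lhx1 and of the antisense gene Lhx1os. In C57BL/6J, Lhx1 had 4.2 ± 2.0 reads in control and 1.3 ± 1.3 in DEHP (adjusted p = 0.0554), and that comparison passed with equal medians (adjusted p = 0.0415) but not with equal sums (adjusted p = 0.201). Both FVB/N calls were kept with equal sums, where 2.42% of all promoters were called (1.53% lower), and with equal medians, where 5.73% were (5.47% lower), with adjusted p from 0.00152 to 0.0398. Both members had separated libraries, as did 1.63% of all promoters, 0.859% with DEHP lower. In a fit of all 4 groups Sox10 was called and Lhx1 was not.

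For the other members called in C57BL/6J, the differences in FVB/N were smaller and did not pass the test. Tbx19 had 17.1 ± 4.9 reads in FVB/N control and 16.6 ± 2.2 in FVB/N DEHP, a difference of -0.5 with an SE of 3.30. Foxn1 had 20.3 ± 10 and 18.1 ± 5.7, a difference of -2.2 with an SE of 4.63. Foxj1 had 23.1 ± 12.8 and 18.7 ± 5.7, a difference of -4.4 with an SE of 5.31. Sox4 had 10.7 ± 4.4 and 6.1 ± 2.1, a difference of -4.6 with an SE of 2.33 (adjusted p = 0.237). Pax4 had 1.2 ± 1.6 and 1.8 ± 1.3 (adjusted p = 0.689). The next lowest adjusted p in FVB/N belonged to Sox11, a neuronal Sox gene with 0.2 ± 0.5 reads in control and 2.8 ± 1.8 in DEHP (adjusted p = 0.0762), which passed on the log2 scale alone.

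**Figure D4:**
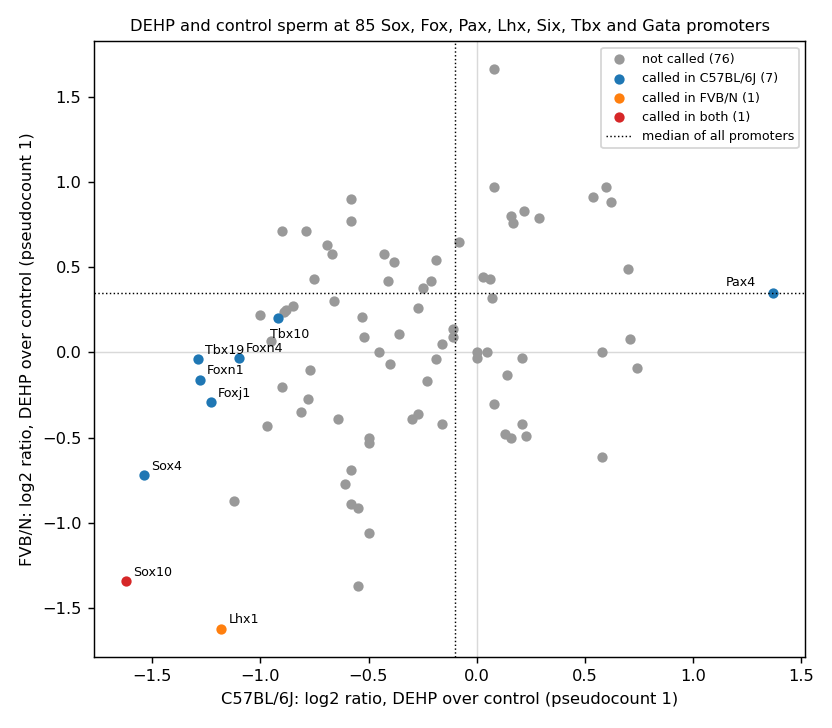
Log2 ratio of the means, DEHP over control with a pseudocount of 1, in C57BL/6J (x axis) and FVB/N (y axis) for the 85 members, coloured by the adjusted p of limma in each strain. Dotted lines mark the median of all promoters; Sox10 is low on both axes, Lhx1 is called in FVB/N, Pax4 lies far right, and the other called members lie left, with FVB/N ratios from -0.72 (Sox4) to 0.20 (Tbx10).

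Whether the effect of DEHP differed between the strains was tested as the difference of both contrasts over the 20 libraries. Limma called 0 of 85 members and 0.0712% of all promoters, while 16 of 85 members and 3862 of 22480 promoters had an unadjusted p under 0.05, which are similar shares. The smallest belonged to Tbx19, at -22.3 reads (C57BL/6J effect minus FVB/N effect, SE 6.49, adjusted p = 0.131), and to Foxn1, at -22 reads (SE 7.63, adjusted p = 0.166). Without tying the spread to the level, Tbx19 alone of the members was called (adjusted p = 0.0417), and with equal sums or equal medians 0 were called, beside 0.0133% and 0.0222% of all promoters. Over all 22480, 3 promoters were called in the positive and 13 in the negative direction, then 3 and 0 with equal sums and 4 and 1 with equal medians. So a fall past the threshold in C57BL/6J and not in FVB/N is not shown to differ between the strains.

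Between the strains, the controls differed at 3 members. Pax9, Tbx6 and Tbx19 were higher in C57BL/6J, which is 3 of 85 (3.53%) beside 2.56% of all promoters (2.54% higher and 0.0267% lower in C57BL/6J). The median log2 ratio of the 85 was 0.45, beside 0.54 for all promoters, and -0.04 with equal sums or -0.08 with equal medians. Pax9, a factor of teeth, thymus and vertebral column, had 10 ± 4.0 reads in C57BL/6J control and 1.6 ± 1.2 in FVB/N control (difference 8.4, SE 2.05, adjusted p = 0.0263, log2 ratio 2.08). Tbx6, which specifies the presomitic mesoderm, had 10.9 ± 2.9 and 2.9 ± 1.0 (difference 8.0, SE 2.10, adjusted p = 0.0383). Every C57BL/6J library of Tbx6 held at least 5.57 reads and every FVB/N library at most 4.83, and this was the only member separated in this way (1.18%, beside 1.09% of all promoters, 1.06% with C57BL/6J higher). The Tbx6 bounds cross with equal sums and with equal medians. Tbx19 had 37.5 ± 7.0 and 17.1 ± 4.9 (difference 20.4, SE 5.63, adjusted p = 0.0477). With equal sums 0 members and 0.0979% of all promoters were called, and with equal medians 0 members and 0.0934%, so these calls rest on the deposited scale. Over all 22480, 570 promoters were higher and 6 lower in C57BL/6J, then 16 and 6 with equal sums and 14 and 7 with equal medians. Pax9 kept a log2 ratio of 1.54 with equal sums, at an adjusted p of 0.441.

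In the DEHP groups, where the deposited scales of both strains were close, 0 members and 0.983% of all promoters were called between the strains, and limma gave 4 members and 1864 of all promoters an unadjusted p under 0.05. These were Pax9, Pax6, Pax3 and Sox12. Pax9 came nearest, with 6.6 ± 2.2 reads in C57BL/6J DEHP and 2.0 ± 1.2 in FVB/N DEHP (difference 4.6, SE 1.32, adjusted p = 0.0508). With equal sums, with equal medians and by separation of libraries 0 members were called as well, beside 0.894%, 0.721% and 0.338% of all promoters. Pax9 was called on the log2 scale and with a filter on means of at least 1 read. It was not called when the spread was not tied to the level (limma adjusted p = 0.238). Pax9 was higher in C57BL/6J in both submissions, which are separate libraries, though only the controls passed. Its probe is chr12:56693639-56695838 (plus strand, 64 CG sites). The authors annotated 15 variants between both strains to the Pax9 promoter, but the interval they name for this count has the upstream and downstream lengths the other way round from the probe, so it may not be the probe. Of the 85 members 43 have at least 1 such variant, with a median of 1 and up to 28 in Pax1. Sox10 has 11, Sox11 11, Tbx19 1, and Tbx6, Sox4 and Lhx1 have 0. The part of these variants in the capture or the mapping was not tested.

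Grouped by role, the called members did not gather in 1 list, and each count below is read against the 13.3% of all promoters that fell in C57BL/6J and the 1.35% that fell in FVB/N. In C57BL/6J, 1 of the 8 measured neural crest and somite genes fell (Sox10), and the median log2 ratio of this list was -0.56. All 8 were below 0, as were all 6 heart genes and 12316 of 22480 promoters. With equal sums, Sox9 and Pax3 of this list lay above 0, at 0.14 and 0.06. In the list of sex determination and gonad 1 of 9 fell (Sox4), with a median of -0.27, and among blood and immune cell genes 2 of 8 did (Sox4 and Foxn1), with a median of -0.04. The Foxn1 call was lost with equal sums (adjusted p = 0.0871). Of germ cell and testis (9 measured), heart (6), early endoderm and liver (6), nervous system (9) and kidney and thyroid genes (7), 0 passed the test in limma. Their medians were 0.14, -0.37, -0.11, -0.64 and -0.50. In the same order, 1, 0, 1, 1 and 2 had an unadjusted p under 0.05, beside 6697 of all 22480 promoters. In FVB/N, Sox10 was the 1 called of 8 neural crest and somite genes, and Lhx1 was the 1 called in each of the lists of germ cells and testis, early endoderm and liver, and kidney and thyroid. In the controls, 2 of 8 neural crest and somite genes were higher in C57BL/6J (Pax9 and Tbx6), beside 2.54% of all promoters, and this list had a median log2 ratio of 0.81. Both of these calls were lost with equal sums and with equal medians, at adjusted p from 0.441 to 0.742.

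Other developmental regulators, such as Nkx, Dlx, Irx, Neurog and Zic genes, were set beside the members, with 92 of 106 measured. In C57BL/6J DEHP 10 of the 92 fell and 2 rose, beside 13.3% and 2.93% of all promoters, with a median log2 ratio of -0.33. In FVB/N 0 were called by limma and the median was 0.10. An unadjusted p under 0.05 was found for 17, beside 5289 of all 22480 promoters. Between the strains in controls 0 were called by limma and the median was 0.42. Here 17 had an unadjusted p under 0.05, beside 5369 of all 22480 promoters. The medians of the members, -0.38, 0.05 and 0.45 for the same 3 comparisons, lay close to these.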

How the data were processed

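MBD-sequencing values of promoters were taken from the table that the authors deposited for 20 sperm samples. Per the study's methods, the authors mapped read-pairs to mm10 using Bowtie 0.12.7, discarded non-concordant pairs, pairs with several positions and pairs without CpG, counted pairs per probe and normalized them with edgeR. Probes with too few reads were dropped by the authors. The deposited signal is the mean and SD of normalized reads of 5 libraries with 1 decimal. The expression score of testicular fractions, the CG sites and the variants are annotations added by the authors. Columns with the authors' fold changes, p-values and FDR were not used. Depth per library is unknown.

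The planned count test was replaced by limma 3.58.1 (R 4.3.3), fed with the differences of group means and the pooled SDs, with moderation along a trend on log2(mean + 1). P-values were adjusted over all 22480 promoters with a threshold of 0.05. They and the SEs reflect only spread between the samples of a group, taken from the promoter itself and from promoters of like level. The weight of each differed by comparison. In some comparisons, named in the last paragraph, promoters of like level replaced nearly all of a promoter's own spread. The script was tested on simulated data. Log2 ratios used a pseudocount of 1. Libraries cannot overlap where means ± 1.79 SD, widened by 0.05 for rounding, do not, which was computed on the deposited scale only. Named were all signal-rich and called members, separated members, those with the lowest means or the most CG sites, and those with the smallest p. Members and lists were chosen with earlier results of these data known. Sequence and exons came from GRCm38.p6 and GENCODE, with Python 3.11.15, numpy 2.4.6, pandas 2.3.3 and matplotlib 3.10.9. Alternatives were equal sums, equal medians, the log2 scale, a filter on means of at least 1, no trend, 1 fit of all 4 groups, a threshold divided by the number of promoters, separation of libraries, a pseudocount of 0.1, and for the signal-rich rule the 90th percentile, reads per CG site or the DEHP groups. Only promoter probes were analysed here.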

Additional observations from a re-analysis of the deposited data

How the results depend on the processing

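No paired analysis was possible because the labels give no replicate numbers shared between groups and the table holds group means only, and for the same reason leaving out each replicate in turn was not run. Of 13 values of called members, 13 kept their direction with equal sums, equal medians and a pseudocount of 0.1, while 8 lost their call with equal sums and 3 with equal medians. The size of the log2 ratio moved with the pseudocount of 0.1 where reads were few. It went from -1.62 to -2.62 for Lhx1 in FVB/N and from 1.37 to 2.13 for Pax4 in C57BL/6J. In C57BL/6J DEHP, 8 members were called, 3 with equal sums, 6 without the trend, 0 with the threshold divided by the number of promoters, and 2 had separated libraries. In FVB/N, 2 were called, 1 in a fit of all 4 groups (Sox10) and 0 with the divided threshold. Between the strains in controls, 3 were called, 0 with equal sums, 0 with equal medians, 5 without the trend, 13 in a fit of all 4 groups, 0 with the divided threshold, and 1 was separated. Between the strains in DEHP 0 were called, but 1 (Pax9) on the log2 scale and 1 (Pax9) with the filter on low means. For the difference between the strains in the DEHP effect 0 were called, and 1 (Tbx19) without the trend. Of the 8 signal-rich members, 4 lay above the 90th percentile. The members' median log2 ratio turned direction with the scale. For DEHP in C57BL/6J it was -0.38, then 0.06 with equal sums and -0.44 with equal medians, and in FVB/N it was 0.05, then -0.01 and -0.48. Between the strains in controls it was 0.45, then -0.04 and -0.08, and in DEHP 0.07, then 0.05 and -0.02. For the difference between the strains in the DEHP effect it was -0.41, then 0.08 and 0.05.

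Over all promoters, 3656 were called in C57BL/6J DEHP, 2353 without the trend, 199 with the divided threshold and 375 by separation. In FVB/N DEHP 626 were called, 1287 with equal medians, 1202 without the trend, 21 with the divided threshold and 367 by separation. Between the strains in controls it was 576, but 22 with equal sums, 21 with equal medians, 3318 in a fit of all 4 groups, 20 with the divided threshold and 245 by separation. Between the strains in DEHP it was 221, but 18 without the trend, 74 in a fit of all 4 groups, 57 with the divided threshold and 76 by separation. For the difference between the strains it was 16, but 3, 5, 1, 37 and 4 with equal sums, equal medians, the log2 scale, no trend and the divided threshold. The cause of these differences was not tested. The trend replaced nearly all of the spread of single promoters in C57BL/6J DEHP and between the strains in DEHP, with 455 and 180000 degrees of freedom in place of 9.85 and 10.5 without it, so p-values there rest on the spread of promoters of like level. Means with 1 decimal and few reads limit what can be seen at island-like members.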
